A study of Rattus norvegicus with 9 samples.

Results

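The genes described here are the 5 subunits of the transcription factor NF-kB (Rela, Rel, Relb, Nfkb1 and Nfkb2) and 5 genes of its feedback circuit (Nfkbia, Nfkbie, Tnfaip3, Nfkbiz and Bcl3). They were taken by symbol from the deposited table, which held each of the 10 once among 22077 intact genes. RNA sequencing was done on peripheral blood mononuclear cells (PBMC, the lymphocytes and monocytes of blood) of wild type Sprague-Dawley rats. The first group was kept in normoxia and sampled at day 0. The other groups were rats of the Sugen-hypoxia model (SuHx) at day 28 and at day 56. This model of pulmonary hypertension joins a VEGF receptor inhibitor (Sugen) with a period of low oxygen. Each group had 3 libraries. The sampling day differed along with the treatment, so time and treatment cannot be told apart. The labels give no age and do not say whether the 3 libraries of a group came from separate rats, so each p-value reflects only how far these samples spread, which may be technical variation.

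NF-kB subunits act as dimers. In resting cells most dimers are held in the cytoplasm by inhibitors of the IkB family, and signals from cytokine, Toll-like and antigen receptors lead to the destruction of these inhibitors and to entry of the dimers into the nucleus. There they switch on many inflammatory genes and, among them, genes for their own inhibitors, which gives the pathway its negative feedback. Rela, Rel and Relb carry activation domains, whereas Nfkb1 and Nfkb2 encode the precursors p105 and p100 that yield p50 and p52. Nfkbia and Nfkbie encode IkB-alpha and IkB-epsilon. Tnfaip3 encodes A20, a ubiquitin-editing enzyme that dampens signalling upstream of NF-kB. Nfkbiz and Bcl3 encode IkB-like proteins that act in the nucleus on subsets of target genes.

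RefSeq promoters (assembly GRCr8, 250 bases before to 50 bases after each start site) were at hand for 9 of the 10 genes. Relb had no entry. They are shown because NF-kB is known to bind kB sites in the promoters of its own feedback genes. In all, 9 letter patterns were searched on both strands, and those printed were picked after the matches had been seen. The loose kB pattern (GGGA, any 4 bases, then CC) was present in 7 of the 9 promoters (Nfkb1, Nfkb2, Rel, Nfkbia, Nfkbiz, Bcl3 and Tnfaip3) and in 19.3% of all 33469 promoters of the same length. Rela and Nfkbie had no match to it. The narrower pattern (GGGA, any 2 bases, then TTCC), every match of which is also a match of the loose pattern, was found in 5 of the 9 and in 1.30% of all promoters. Of the other kB patterns, GGGA, any base, then TTTCC occurred in 5 of the 9 (0.362% of all). The classical kB site of the immunoglobulin kappa enhancer occurred in 2 (0.111%). GGG, any 3 bases, then TTCC occurred in 7 (5.37%), as did GGAA, any 4 bases, then CC (18.1%). The AP-1 pattern TGACTCA occurred in 2 (4.63%), the E-box CACGTG in 1 (6.42%) and the CRE pattern TGACGTCA in 0 (1.83%). The kB patterns overlap one another, and a match is a description of letters only. The 5 matches to the narrower pattern are given with 10 bases on each side, read on the strand of the motif and with the match in capitals.
Nfkb1, match at chr2:226805450-226805459, minus strand: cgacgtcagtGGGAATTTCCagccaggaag
Nfkb2, match at chr1:255108354-255108363, plus strand: tggtattttcGGGACTTTCCtaagagcact
Nfkbia, match at chr6:78597094-78597103, plus strand: gtcaggcgcgGGGAATTTCCaagccagtca
Nfkbiz, match at chr11:58251708-58251717, plus strand: tttttggcctGGGAATTTCCagcgtgtgga
Tnfaip3, match at chr1:15544037-15544046, plus strand: ggatttccgaGGGACTTTCCagtcacgtga
The match began 67 bases before the start site in Tnfaip3, 31 before it in Nfkbia, 20 before it in Nfkb2, 13 before it in Nfkbiz and 3 bases after it in Nfkb1. The whole promoters of Tnfaip3, Rel and Rela, the gene with the largest rise and the subunits that rose below, are shown on the gene's strand with matches to the loose pattern on either strand in capitals. They hold 3, 2 and 0 matches.
Tnfaip3 promoter, chr1:15543930-15544229, minus strand: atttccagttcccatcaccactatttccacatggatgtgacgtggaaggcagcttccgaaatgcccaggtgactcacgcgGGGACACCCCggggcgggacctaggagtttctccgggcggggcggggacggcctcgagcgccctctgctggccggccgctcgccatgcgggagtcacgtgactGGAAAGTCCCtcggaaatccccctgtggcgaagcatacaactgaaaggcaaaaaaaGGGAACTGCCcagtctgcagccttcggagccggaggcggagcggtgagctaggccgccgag
Rel promoter, chr14:101921889-101922188, minus strand: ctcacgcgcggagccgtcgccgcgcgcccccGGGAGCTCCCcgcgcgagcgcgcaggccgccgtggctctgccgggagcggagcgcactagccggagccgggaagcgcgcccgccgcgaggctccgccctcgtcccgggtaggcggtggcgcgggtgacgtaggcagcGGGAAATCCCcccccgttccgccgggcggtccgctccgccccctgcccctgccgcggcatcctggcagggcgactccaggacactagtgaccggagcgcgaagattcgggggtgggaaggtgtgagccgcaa
Rela promoter, chr1:212354086-212354385, plus strand: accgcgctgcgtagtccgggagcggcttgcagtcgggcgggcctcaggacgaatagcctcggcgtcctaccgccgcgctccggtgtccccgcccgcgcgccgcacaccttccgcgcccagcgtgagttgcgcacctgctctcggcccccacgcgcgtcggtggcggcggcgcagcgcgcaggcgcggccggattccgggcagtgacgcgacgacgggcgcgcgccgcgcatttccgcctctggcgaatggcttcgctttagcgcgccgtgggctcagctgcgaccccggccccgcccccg

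Libraries held 22148400 to 39947430 exon reads and 1527340 to 7340467 intron reads. The 5 globin-locus genes with the most reads took 43.0 to 56.3% of exon reads in normoxia and 40.5 to 44.4% at day 56, but 1.42%, 4.83% and 29.0% in replicates 1, 2 and 3 of day 28. Intron reads can come from unspliced RNA, from genomic DNA and, as the strand setting is not given, from antisense genes. They made up 14.6%, 6.60% and 5.37% of gene reads in normoxia, 24.9%, 21.4% and 14.2% at day 28 and 16.9%, 14.0% and 11.9% at day 56. Day 28 replicate 3 and normoxia replicate 1 thus stood apart from the other libraries of their groups. Markers of T cells, B cells, NK cells and monocytes were read in every library, as were those of platelets and neutrophils. CPM are counts scaled to library sizes that were adjusted by edgeR's TMM factors, not to plain library totals. Summed monocyte markers (8 of 8 genes in the file) ranged from 2014 to 4283 CPM in normoxia. They ranged from 3051 to 9961 CPM at day 28 and from 1586 to 2529 CPM at day 56. Summed platelet markers (8 of 8 genes, Gp5 at 0 in all libraries) were 718, 3033 and 3260 CPM in normoxia. They were 566 to 888 CPM at day 28 and 1807 to 3566 CPM at day 56. The part of globin RNA, intron share and cell makeup in the results below was not tested except where a fit with that share is given. In bulk samples, fewer cells of a type and less RNA per cell cannot be told apart.

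At day 56 all of the called genes of the circuit were higher than in normoxia on exon reads. Tnfaip3 (A20) rose by the most, Rel and Rela rose among the subunits, Nfkbie rose among the IkB genes, and Nfkbiz rose among the nuclear regulators. In edgeR's quasi-likelihood test with Benjamini-Hochberg adjustment over 12447 genes, 5 of the 10 genes rose and 0 fell, where 7.12% of all genes tested were called and 3.42% were called higher. The median log2 fold change of the 10 was 0.98, against -0.04 over all genes tested. In 8 of the 10 all day 56 libraries lay above all normoxia libraries, as did 15.6% of all genes. At day 28 only Tnfaip3 passed of the 10, where 0.129% of all genes were called and 0.0884% called higher. There 7 of the 10 had an unadjusted p under 0.05 against 28.8% of all genes, 6 of the 10 lay wholly above normoxia against 11.4% of all genes, and the median log2 fold change was 0.75 against -0.01. Between day 56 and day 28 edgeR called 0 of the 10, where 0.546% of all genes were called. All day 56 libraries lay above day 28 in 4 of the 10 (17.8% of all genes) and below it in 1 (17.4%). In that comparison 4 of the 10 had an unadjusted p under 0.05 against 18.5% of all genes, and DESeq2 called 2 of the 10 against 7.93%. Without normoxia replicate 1, edgeR called 3 of the 10 there (Rel, Tnfaip3 and Nfkb1), against 7.89% of all genes. Both days are set against the same normoxia libraries, so their values are not independent. DESeq2 called 6 of the 10 at day 28, where it called 13.1% of all genes, and 7 at day 56, where it called 18.5%. Without normoxia replicate 1, edgeR called 8 of the 10 at day 28 and 8 at day 56, but it then also called 45.2% and 43% of all genes. The genes that this fit added at day 56 were Nfkb2, Nfkbia and Bcl3. Without day 28 replicate 3 it called 3 of the 10 at day 28, against 3.07% of all genes. With either the share of intron reads or that of globin reads as a covariate it called 0 of the 10 at day 28, against 0.00803% of all genes.

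**Figure D1:**
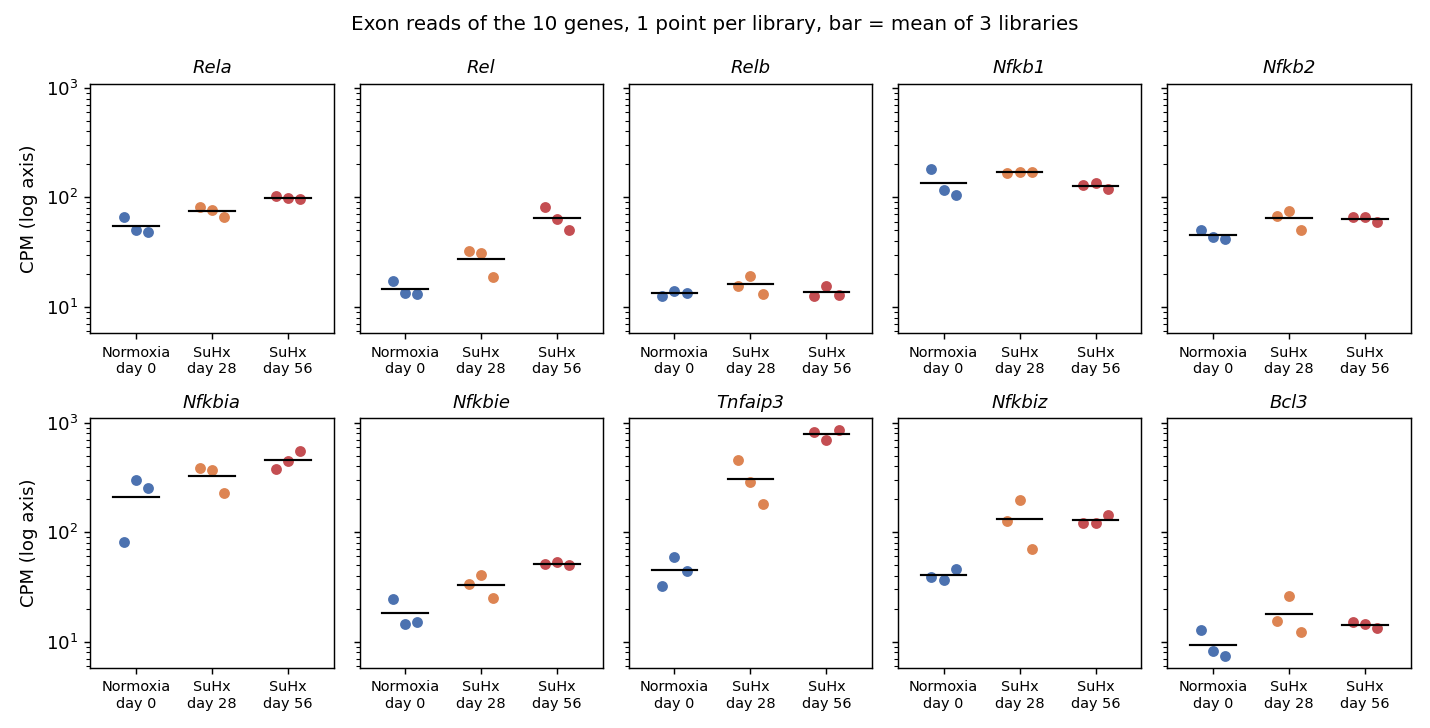
Exon reads of each of the 10 genes in CPM on a log axis (y) by group (x; SuHx is Sugen-hypoxia), 1 point per library in the order of replicates 1 to 3 and a bar at the mean. Tnfaip3 runs from 32.0 to 59.4 CPM in normoxia to 693 to 862 CPM at day 56, while Relb stays between 12.5 and 19.3 CPM in all libraries.

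Among the subunits, Rel had the largest change. Rel encodes c-Rel, which is abundant in lymphocytes and drives genes of lymphocyte activation. In the file it lies on chromosome 14 from 108491068 to 108509892 (rn6, 10 exons). Its exon reads were 17.2, 13.4 and 13.0 CPM in normoxia, 32.3, 30.8 and 18.8 CPM at day 28 and 82.4, 63.1 and 49.97 CPM at day 56. The 3 groups did not overlap, and the lowest library of day 28 was replicate 3. Rel rose at day 56 by a log2 fold change of 2.16 ± 0.26 (SE; edgeR adjusted p = 0.00493). This call held in 20 of 20 alternatives, with adjusted p from 2.79e-12 to 0.0320. The day 28 log2 fold change of Rel was 0.90 ± 0.26 (edgeR adjusted p = 0.0937), and between day 56 and day 28 it was 1.26 ± 0.25 (edgeR adjusted p = 0.0681).

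Rela encodes p65, the main activating subunit of the canonical pathway, and lies on chromosome 1 from 220992769 to 221003249 (11 exons). It stood at 66.2, 50.6 and 48.2 CPM in normoxia, 81.9, 76.1 and 66.9 CPM at day 28 and 101.98, 98.1 and 97.2 CPM at day 56. The groups did not overlap, but the steps were small and the highest normoxia library nearly met the lowest of day 28. Rela rose at day 56 by 0.85 ± 0.17 on the log2 scale (edgeR adjusted p = 0.0227). The call was lost in 8 of 20 alternatives: without each of 5 libraries (normoxia replicates 2 and 3 and the 3 of day 56, adjusted p up to 0.103), with the intron share as a covariate (0.0652), with only the groups compared (0.0552) and on exon-exon junction reads (0.0602). At day 28 the log2 fold change of Rela was 0.45 ± 0.17 (edgeR adjusted p = 0.130).

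The other subunits did not pass on exon reads. Nfkb2, the p100 precursor of the non-canonical pathway, stood at 50.4, 43.1 and 41.4 CPM in normoxia and at 66.1, 66.3 and 60.1 CPM at day 56. These groups did not overlap, yet the log2 fold change of 0.51 ± 0.18 had an edgeR adjusted p of 0.0932. Nfkb1, the p105 precursor, had 181, 118 and 105 CPM in normoxia, 167, 170 and 171 CPM at day 28 and 130, 136 and 118 CPM at day 56. Its log2 fold change at day 56 was -0.07 ± 0.21 (edgeR adjusted p = 0.844), and all day 56 libraries lay below those of day 28. Relb, the activating partner of p52, had a log2 fold change of 0.04 ± 0.18 at day 56 (edgeR adjusted p = 0.911), with 12.5 to 14.0 CPM in normoxia and 12.5 to 15.7 CPM at day 56.

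Rel took a larger part of the subunit mRNA pool in every day 56 library than in any other library. Levels of different genes were compared only per length, as CPM per kilobase of exon. Of the summed level of the 5 subunits, Rel made up 9.15%, 9.46% and 9.87% in normoxia, 14.6%, 13.7% and 10.1% at day 28 and 31.1%, 25.3% and 22.6% at day 56. Nfkb1 made up 43.9%, 38.1% and 36.4% in normoxia, 34.7%, 34.6% and 42.0% at day 28 and 22.5%, 25.03% and 24.6% at day 56. For both genes the day 56 libraries lay outside the range of the other groups, Rel above and Nfkb1 below. Rela held 25.9% ± 0.48 (SD, n = 3) in normoxia and 29.4% ± 2.14 at day 56. Nfkb2 held 17.0% ± 1.40 and 15.1% ± 0.69, and Relb 8.09% ± 1.80 and 5.09% ± 0.75. The ratio of Rel to Rela per length was 0.359, 0.366 and 0.373 in normoxia and 1.12, 0.888 and 0.710 at day 56. These shares and ratios are taken within a library and do not depend on scaling between libraries; no test was run on them.

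**Figure D2:**
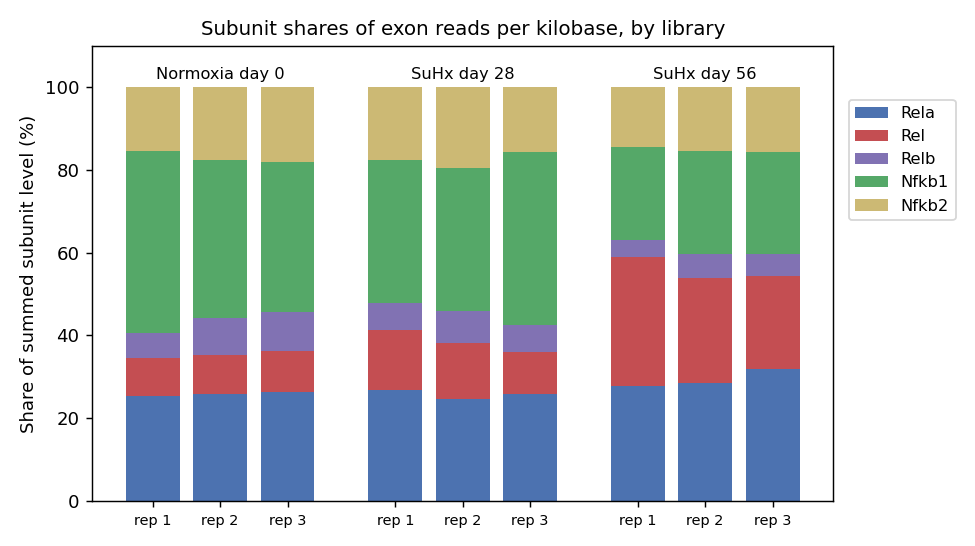
Share (y, %) of each of the 5 subunits in their summed level of exon reads per kilobase, 1 stacked bar per library (x) by group (SuHx is Sugen-hypoxia). The Rel segment widens from 9.15 to 9.87% in normoxia to 22.6 to 31.1% at day 56, and the Nfkb1 segment narrows from 36.4 to 43.9% to 22.5 to 25.03%.

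Tnfaip3 was the gene with the largest change of the 10. It lies on chromosome 1 from 14402912 to 14412807 (8 exons). Its exon reads were 32.0, 59.4 and 44.6 CPM in normoxia, 456, 287 and 182 CPM at day 28 and 819, 693 and 862 CPM at day 56. All day 28 libraries lay above normoxia and all day 56 libraries above day 28. Tnfaip3 rose at day 56 by 4.13 ± 0.39 on the log2 scale, a 17.5-fold rise (edgeR adjusted p = 0.00134), and the call held in 20 of 20 alternatives with log2 fold changes from 3.93 to 4.37. At day 28 it rose by 2.77 ± 0.36, or 6.80-fold (edgeR adjusted p = 0.0450). The day 28 call was lost in 10 of 20 alternatives. These were the fits without each of 7 libraries (all but normoxia replicate 1 and day 28 replicate 3, adjusted p up to 0.121), with only the groups compared (0.204), with the intron share as a covariate (0.982) and with the globin share (0.790). Adjusted for the globin share, the day 28 value was 1.77 on the log2 scale and the day 56 value 4.06 (edgeR adjusted p = 0.000816). Between day 56 and day 28 the log2 fold change was 1.36 ± 0.35 (edgeR adjusted p = 0.0960).

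The classical IkB genes differed in how far their libraries agreed. Nfkbie, whose product retains Rela and Rel dimers in the cytoplasm, stood at 24.7, 14.5 and 15.1 CPM in normoxia, 33.5, 40.8 and 25.1 CPM at day 28 and 50.8, 54.0 and 50.4 CPM at day 56. The groups did not overlap, but the highest normoxia library nearly met the lowest of day 28. Nfkbie rose at day 56 by 1.51 ± 0.25 on the log2 scale (edgeR adjusted p = 0.0129). The call was lost without each of 4 libraries (normoxia replicates 2 and 3 and day 56 replicates 2 and 3), with adjusted p up to 0.0636. At day 28 the log2 fold change of Nfkbie was 0.87 ± 0.24 (edgeR adjusted p = 0.0928). Nfkbia, the fast feedback inhibitor, stood at 81.7, 299 and 253 CPM in normoxia, 385, 372 and 229 CPM at day 28 and 374, 446 and 550 CPM at day 56. Normoxia replicate 1 was low, and day 28 replicate 3 fell within the range of normoxia. The log2 fold change of Nfkbia at day 56 was 1.11 ± 0.43 (edgeR adjusted p = 0.119), although all day 56 libraries lay above normoxia.

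Of the nuclear regulators, Nfkbiz passed and Bcl3 did not. Nfkbiz, whose product IkB-zeta is needed for a subset of secondary inflammatory genes, had 38.9, 36.9 and 46.1 CPM in normoxia, 127, 196 and 69.8 CPM at day 28 and 121, 122 and 144 CPM at day 56. Both SuHx groups lay wholly above normoxia, with a wide spread at day 28. Nfkbiz rose at day 56 by 1.67 ± 0.32 on the log2 scale (edgeR adjusted p = 0.0213), and its log2 fold change at day 28 was 1.69 ± 0.32 (edgeR adjusted p = 0.0597). The day 56 call was lost without each of 5 libraries (normoxia replicates 2 and 3 and the 3 of day 56, adjusted p up to 0.0955) as well as after adding the intron share (0.107). Bcl3, a partner of p50 and p52 homodimers, had 12.7, 8.17 and 7.33 CPM in normoxia, 15.5, 25.9 and 12.2 CPM at day 28 and 14.99, 14.6 and 13.4 CPM at day 56. For Bcl3 the log2 fold change came to 0.92 ± 0.30 at day 28 (edgeR adjusted p = 0.110) and 0.61 ± 0.30 at day 56 (0.198).

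Ranked per length in normoxia, Nfkbia had the highest level (135 ± 73.2 CPM per kilobase, SD, n = 3) and Bcl3 the lowest (4.98 ± 1.52). Tnfaip3 ranked 4 there at 18.5 ± 5.62 and overlapped Rela above it (22.5 ± 4.01) and Nfkb2 below it (14.6 ± 1.55). At day 28 the order was led by Nfkbia (210 ± 55.3) and Tnfaip3 (126 ± 56.4), whose libraries overlapped. At day 56 Tnfaip3 came first (324 ± 35.8) and Nfkbia next (292 ± 56.6), again with overlap, and both lay above all libraries of the third, Rela (40.6 ± 1.05). Rela, Rel (36.8 ± 9.22), Nfkb1 (33.2 ± 2.31), Nfkbie (32.3 ± 1.203) and Nfkbiz (31.9 ± 3.13) each overlapped their neighbour in that order. Rel had ranked 8 of the 10 in both other groups.

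Intron reads gave a second readout of the same genes. At day 56, 6 of the 10 genes were higher than in normoxia on intron reads and 0 were lower, where 15.6% of 11713 genes were called and 8.16% were called higher. The 6 were Tnfaip3, Rel, Nfkb2, Rela, Nfkbie and Relb, so that Nfkb2 and Relb passed here but not on exon reads, and Nfkbiz passed on exon reads but not here. In 9 of the 10 all day 56 libraries lay above normoxia, as in 20% of all genes, and at day 28 this held for 2 of the 10 against 12%. The median log2 fold change of the 10 was 1.34, against -0.04 over all genes. At day 28 edgeR called 0 of the 10 on intron reads, where 1.59% of all genes were called, and 5 of the 10 had an unadjusted p under 0.05 against 27.2%. Without day 28 replicate 3 it called 9 of the 10, all but Nfkbia, against 12% of all genes. Without normoxia replicate 1 it called 3, against 25.8% of all genes, which is near the members' share. Between day 56 and day 28 it called 0 of the 10, where 0.922% of all genes were called, 5 of the 10 lay wholly above day 28 against 16.8%, and 3 had an unadjusted p under 0.05 against 18.9%. Without normoxia replicate 1 it called 2 of the 10 there (Nfkb2 and Rela), against 6.46% of all genes. DESeq2 was not run on intron reads. With the intron share as a covariate, 3 of the 10 passed at day 56 (Rela, Rel and Tnfaip3), against 5.17% of all genes.

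Rel intron reads were 45.6, 44.2 and 52.5 CPM in normoxia, 187, 197 and 50.8 CPM at day 28 and 335, 262 and 235 CPM at day 56. Day 28 replicate 3 lay within the range of normoxia while its fellow libraries lay far above it. Rel rose at day 56 by 2.55 ± 0.42 on the log2 scale (edgeR adjusted p = 0.00662). Tnfaip3 intron reads were 29.9, 168 and 153 CPM in normoxia, 846, 679 and 325 CPM at day 28 and 875, 809 and 978 CPM at day 56. Normoxia replicate 1 was the lowest library, and all day 28 libraries lay above normoxia. Day 28 and day 56 overlapped, since day 28 replicate 1 lay above day 56 replicate 2. Tnfaip3 rose at day 56 by 2.94 ± 0.56 (edgeR adjusted p = 0.0105). Rela rose by 1.84 ± 0.28 (edgeR adjusted p = 0.00491) and Nfkbie by 1.53 ± 0.32 (edgeR adjusted p = 0.0132). All of these calls held without each of the 9 libraries in turn. With the intron share, Nfkbie had an adjusted p of 0.0756.

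Nfkb2 intron reads were 40.8, 78.0 and 59.7 CPM in normoxia, 97.5, 116 and 38.9 CPM at day 28 and 204, 210 and 232 CPM at day 56. All day 56 libraries stood above every other library. Nfkb2 rose at day 56 by 1.86 ± 0.36 on the log2 scale (edgeR adjusted p = 0.0107; 0.0675 with the intron share). Relb intron reads were 63.97, 83.6 and 66.9 CPM in normoxia and 176, 160 and 142 CPM at day 56. Relb rose by 1.16 ± 0.28 (edgeR adjusted p = 0.0222), and this call was lost without each of 4 libraries (normoxia replicate 3 and the 3 of day 56, adjusted p up to 0.0775) and with the intron share (0.137).

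**Figure D3:**
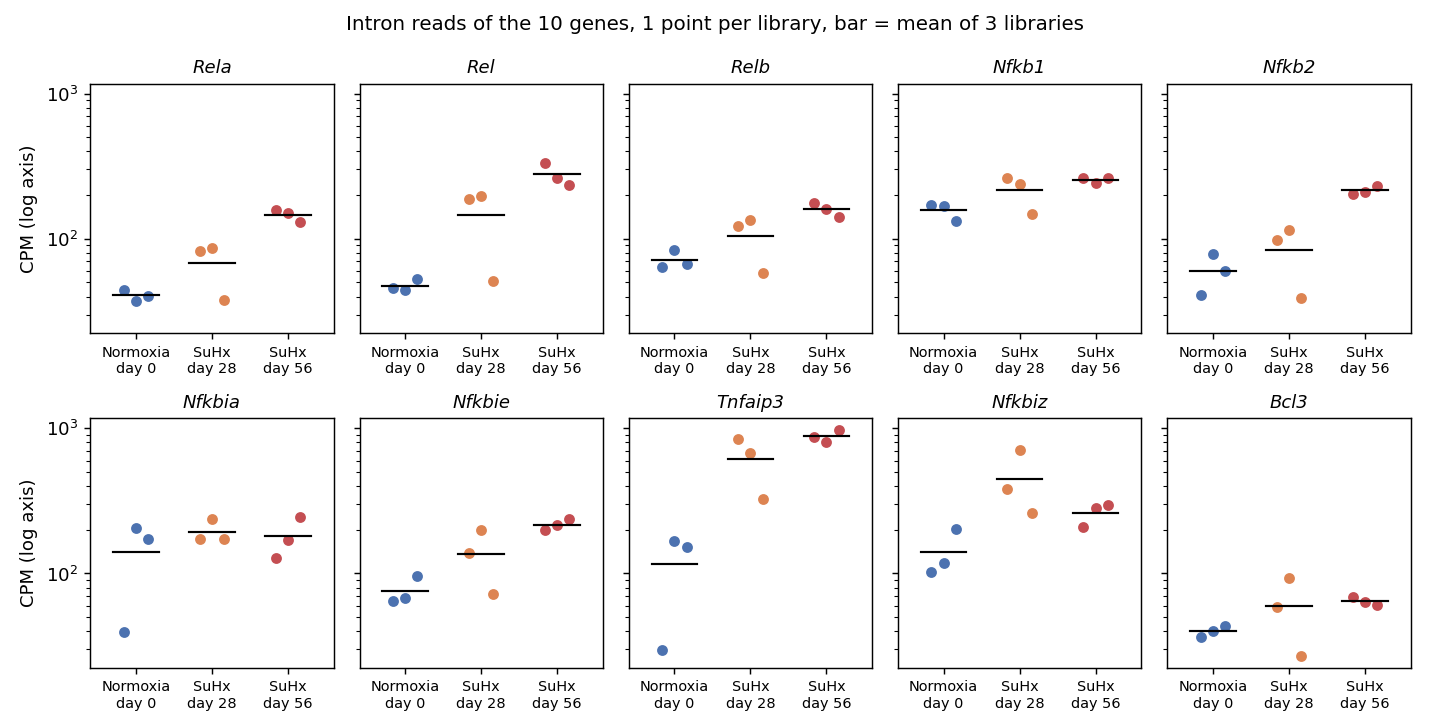
Intron reads of each of the 10 genes in CPM of all intron reads on a log axis (y) by group (x; SuHx is Sugen-hypoxia), 1 point per library in the order of replicates 1 to 3 and a bar at the mean. Nfkb2 stands at 204 to 232 CPM at day 56 above 40.8 to 78.0 CPM in normoxia, and Rel in day 28 replicate 3 (50.8 CPM) lies within normoxia.

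Exon and intron fold changes were then set against each other in a single edgeR model with the library as a block. This test was chosen after the exon and intron results had been seen. At day 56 the intron change exceeded the exon change in Nfkb2 by 1.37 ± 0.31 on the log2 scale (edgeR adjusted p = 0.0167), in Relb by 1.11 ± 0.23 (0.0115) and in Rela by 0.98 ± 0.24 (0.0208). It fell short of the exon change in Nfkbiz, by -0.73 ± 0.21 (edgeR adjusted p = 0.0369). Thus 4 of the 10 genes were called, where 15.2% of 10996 genes were called. On the side of more intron reads 3 of the 10 were called, against 944 of 10996 genes, and on the other side 1, against 723. The 3 were subunits, but the subunit Rel was not called (0.40 ± 0.29, edgeR adjusted p = 0.364). Nfkb1 (0.73 ± 0.24, edgeR adjusted p = 0.0581), Nfkbia (-0.68 ± 0.22, 0.0595) and Tnfaip3 (-0.95 ± 0.37, 0.101) did not pass. Without normoxia replicate 1, Tnfaip3 (-1.47, edgeR adjusted p = 5.39e-05) and Nfkbia (-0.83, 0.00723) passed, and 6 of the 10 were called against 35.3% of all genes. Without day 28 replicate 3, Nfkb1 (edgeR adjusted p = 0.0251) and Nfkbia (0.0461) passed, where 1847 of 11244 genes were called. Relb lost its call only without day 56 replicate 1 (adjusted p = 0.0555), Nfkb2 without each of the 3 day 56 libraries (up to 0.0640), Rela without each of 5 libraries (up to 0.0794) and Nfkbiz without each of 7 (up to 0.152). At day 28 0 of the 10 were called and 0 had an unadjusted p under 0.05, where 2.3% of all genes were called and 22.8% had an unadjusted p under 0.05. Bcl3 and Tnfaip3 were called at day 28 without normoxia replicate 1, against 28.8% of all genes, and without day 28 replicate 3 Rel was called, against 6.01%. Between day 56 and day 28 1 of the 10, Nfkb2, was called, where 1.38% of all genes were called. Only edgeR was run for this test.

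In shares of a gene's own reads, introns gave 12.3%, 14.3% and 11.5% of Nfkb2 reads in normoxia and 38.9%, 35.5% and 37.7% at day 56. For Relb the share was 46.9%, 35.5% and 30.9% in normoxia and 74.4%, 63.9% and 63.3% at day 56. For Nfkbia it was 7.71%, 6.01% and 5.83% in normoxia and 6.59%, 6.18% and 6.56% at day 56. For Tnfaip3 it was 13.9%, 20.8% and 23.6% in normoxia and 18.1%, 16.9% and 15.1% at day 56. The Nfkb2 and Relb groups did not overlap, and those of Nfkbia and Tnfaip3 did. The share over all genes was also higher at day 56 than in normoxia replicates 2 and 3, as given above, and its part in these shares was not tested.

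**Figure D4:**
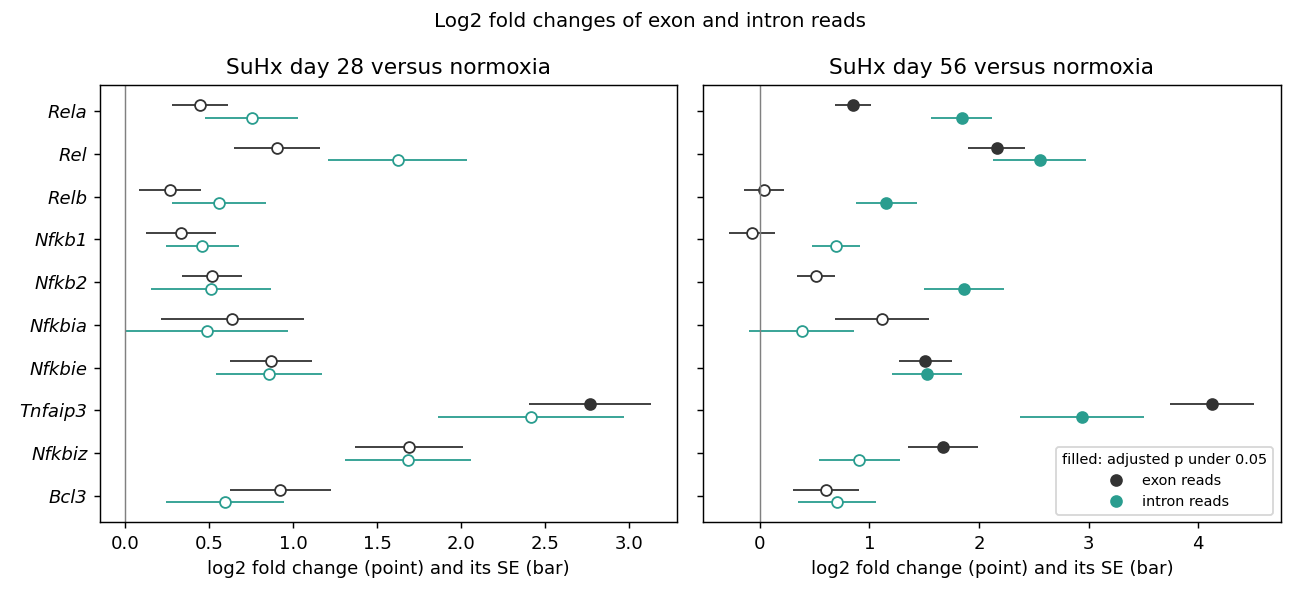
Log2 fold changes (x) of the 10 genes (y) against normoxia at day 28 and day 56 of Sugen-hypoxia (SuHx), with exon reads in black and intron reads in green; bars are SEs and filled points have an adjusted p under 0.05. At day 56 Nfkb2 and Relb sit further right on intron reads (1.86 and 1.16) than on exon reads (0.51 and 0.04), and Nfkbiz and Tnfaip3 further left.

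Wider lists gave the rest of the pathway. Of 40 tested receptors, adaptors and kinases of NF-kB signalling, 3 rose and 3 fell on exon reads at day 56, where 3.42% of all genes were called higher and 3.7% lower. Their median log2 fold change was 0.10 against -0.04 over all genes. Traf6, the ubiquitin ligase downstream of Toll-like and interleukin-1 receptors, rose from 15.2 ± 5.76 to 59.1 ± 10.4 CPM (SD, n = 3; log2 fold change 1.96, edgeR adjusted p = 0.00751). Map3k14, the kinase NIK of the non-canonical pathway, rose from 35.9 ± 10.4 to 63.3 ± 6.19 CPM (edgeR adjusted p = 0.0478), and Irak2 from 23.7 ± 1.47 to 39.1 ± 1.13 CPM (0.0343). Tnfrsf13c, the BAFF receptor of B cells, fell from 27.1 ± 3.74 to 7.97 ± 2.02 CPM (edgeR adjusted p = 0.00601), Traf5 from 22.9 ± 3.89 to 12.6 ± 1.72 CPM (0.0290) and Tbk1 from 52.9 ± 4.72 to 35.2 ± 3.92 CPM (0.0470). Summed B cell markers (6 of 7 genes in the file, none at 0 in all libraries) were 901 to 1478 CPM in normoxia and 445 to 733 CPM at day 56, and their part in the Tnfrsf13c value was not tested. At day 28 0 of the 40 passed on exon reads, where 0.129% of all genes were called. On intron reads 1 of 39 rose at day 28 and 0 fell, where 1.59% of all genes were called. At day 56 8 of 39 rose on intron reads and 2 fell, where 8.16% of all genes were called higher and 7.49% lower.

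Of 17 tested other inhibitors and deubiquitinases, 3 rose and 0 fell on exon reads at day 56 (3.42% and 3.7% of all genes), and on intron reads 3 of 16 rose and 1 fell (8.16% and 7.49%). Zc3h12a, the RNase Regnase-1 that degrades inflammatory mRNAs, rose from 25.8 ± 2.22 to 136 ± 5.14 CPM (SD, n = 3; log2 fold change 2.40, edgeR adjusted p = 0.0112). The IkB genes Nfkbid and Nfkbib rose from 9.10 ± 0.59 to 20.2 ± 0.26 CPM (edgeR adjusted p = 0.0136) and from 24.4 ± 1.84 to 37.3 ± 4.29 CPM (0.0407). Nfkbid, which encodes a nuclear IkB protein, was also higher at day 56 than at day 28 (9.49 ± 2.09 CPM; edgeR adjusted p = 0.0424). The call between the days was lost with the globin share as a covariate, where 0 of all genes were called.

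Of 34 tested NF-kB target genes, 9 rose and 1 fell on exon reads at day 56 (3.42% and 3.7% of all genes), with a median log2 fold change of 0.49. At day 28 0 of them passed, where 0.129% of all genes were called. Their median there was 0.98, against -0.01 over all genes. On intron reads 5 of 29 rose at day 56 and 0 fell (8.16% and 7.49% of all genes). The chemokine genes Ccl4 and Ccl3 rose from 15.3 ± 7.43 to 132 ± 28.5 CPM (SD, n = 3; edgeR adjusted p = 0.0183) and from 34.7 ± 16.6 to 191 ± 47.1 CPM (0.0348). Junb, an AP-1 subunit, rose from 76.0 ± 23.9 to 474 ± 27.1 CPM (edgeR adjusted p = 0.0198). Mmp9, Csf1, Cxcl2 and Ptgs2 also rose. Cxcl2 had only 0, 8 and 4 exon reads in normoxia, against 82, 53 and 131 at day 56, and Ptgs2 had 2, 3 and 2 against 74, 36 and 48. The co-stimulator Cd86 fell from 13.5 ± 3.79 to 4.86 ± 0.68 CPM (edgeR adjusted p = 0.0198). Bcl2l1, an anti-apoptotic gene, was higher at day 56 than at day 28 (103 ± 23.6 against 21.4 ± 8.05 CPM; edgeR adjusted p = 0.0291). With the globin share as a covariate edgeR called 0 genes between the days on exon reads, so this call was lost.

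Over the 9 libraries, the exon profile (log2 CPM) most like that of Tnfaip3 among genes outside the 10 was that of Btg2 (Pearson r = 0.993), followed by Dnaaf2 and LOC100911305. Rel was most like Map3k8 (0.998), Zbtb10 and Irs2, and Rela most like Vamp2 (0.995), Traf6 and Maml1. Among the 10 themselves the closest pairs were Rela with Nfkbie (0.980) and Rela with Rel (0.959). The libraries share 3 groups, depth and globin content, and the most like genes were picked from all genes tested, so these values are descriptions.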

How the data were processed

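Per the file headers, the authors deposited 1 table with read counts per gene, among them uniquely mapped exon reads, exon-exon reads and total gene reads. RPKM values were deposited by the authors next to them and were not tested. The column headed expression values was read here as raw counts of exon reads. A few deposited columns are formally estimated counts, since a broken line put a fraction in them; they were whole on all intact lines. Per the submitters' processing notes, the build was rn6 and FastQC was among the tools. Aligner, counter and strand setting: not given in the sources used here. Of 22085 lines, 22077 held intact genes and the other 8 were left out. A further 72 columns of per-sample values were not used. All exon reads of the 10 genes were uniquely mapped (100%).

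Intron reads were total gene reads minus exon reads. Each kind of read was tested over all 9 libraries with edgeR 4.0.16 in R 4.3.3 (TMM factors, default filterByExpr, robust quasi-likelihood F-test, 1 mean per group), with Benjamini-Hochberg adjustment at 0.05 over 12447 genes for exon and 11713 for intron reads. All 10 genes passed the filters. CPM use TMM-scaled library sizes, and SE is the log2 fold change over the root of F. The common biological coefficient of variation was 0.280 (exon) and 0.261 (intron). On that scale a count of 3 reads was 0.0762 to 0.195 CPM of exon reads and 0.385 to 2.16 CPM of intron reads, which covers counting error only. Correlations used log2(CPM + 0.5). DESeq2 1.42.0 was an alternative on exon reads. The code was tested on simulated data. All 10 genes are named whatever their result. From each list and comparison on exon reads, called genes are named, up to the 8 with the largest change, and the 3 most correlated genes are named for Tnfaip3, Rel and Rela. The members, the lists and the tests were chosen with earlier results of these data known. The exon-intron test, its alternatives and the junction-read alternative were chosen after seeing the data.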

Additional observations from a re-analysis of the deposited data

Results flagged for a closer look

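The exon and intron readouts of Nfkb2 moved apart between the days of Sugen-hypoxia, a difference tested directly in the model over both kinds of reads. From day 28 to day 56 the intron change of Nfkb2 exceeded its exon change by 1.46 ± 0.30 on the log2 scale (edgeR adjusted p = 0.0422), where 1.38% of 10996 genes were called. The intron change was 1.35 ± 0.35 and the exon change -0.01 ± 0.18. The call was lost without each of 7 of the 9 libraries, with adjusted p up to 0.191 and log2 differences from 1.17 to 1.64. It was the only 1 of the 10 genes called in that comparison, and 7 of the 10 had an unadjusted p under 0.05 against 17.6% of all genes. Without normoxia replicate 1, 7 of the 10 were called, where 9.29% of all genes were.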

How the results depend on the processing

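Of the 10 genes, edgeR called 1 at day 28, 5 at day 56 and 0 between the days on exon reads, and 0, 6 and 0 on intron reads. On exon reads at day 28 the count was 6 with DESeq2, 2 with no filter, and 0 with only the groups compared, with the intron share or with the globin share as a covariate. Over all genes these fits called 1661 of 12665, 151 of 16962, 2 of 12179, 1 of 12447 and 1 of 12447. At day 56 it was 7 with DESeq2, 4 with only the groups compared, 4 on junction reads and 3 with the intron share. Those fits called 2343 of 12665, 348 of 12055, 258 of 10728 and 138 of 12447 genes. Between the days the count was 2 with DESeq2 and 1 with only the groups compared, with the intron share or with the replicate block. All-gene counts in these fits were 1057 of 13322, 590 of 12281, 61 of 12447 and 186 of 12447. On intron reads at day 28 the count was 4 with exon library sizes and 1 with no filter. All-gene counts were 472 of 11787 and 343 of 16948. At day 56 the count was 7 with exon library sizes or no filter, 8 with only the groups compared and 3 with the intron share. There 1261 of 11787, 1661 of 16948, 1703 of 11400 and 606 of 11713 genes were called. Between the days the count was 1 with the intron share, where 85 of 11713 genes were called. With each library left out in turn, the exon counts ran from 0 to 8 (day 28), 2 to 8 (day 56) and 0 to 3 (between the days), and the intron counts from 0 to 9, 5 to 8 and 0 to 2. At the high ends 5732, 5453 and 1002 of 12694 genes were called on exon reads. On intron reads 1436 of 12001, 2225 of 12001 and 776 of 12011 were called there. Each of the high ends came without normoxia replicate 1, except for intron reads against normoxia, where it came without day 28 replicate 3. The causes were not tested. Rel and Tnfaip3 at day 56 kept their calls on exon and on intron reads in all alternatives run. With the intron share, their edgeR adjusted p on intron reads was 0.0366 and 0.0497. Rela at day 56 kept its call in all alternatives on intron reads only.

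Whether replicate numbers pair the libraries could not be settled with 3 libraries a group. Same-numbered libraries of normoxia and day 28 had deviations that correlated at 0.167, -0.0593 and -0.0572, those of normoxia and day 56 at 0.0653, -0.146 and 0.154, and those of day 28 and day 56 at 0.0488, 0.161 and 0.0724. Different-numbered libraries correlated at -0.223 to 0.264. In the file headers the 3 day 28 libraries carry consecutive numbers apart from those of the other groups. Normoxia replicate 1 and day 56 replicate 1 carry neighbouring numbers. The remaining libraries of these groups share another consecutive run, apart from that pair. What these numbers stand for is not given. With the replicate block the counts of members were 1, 5 and 1 on exon reads and 0, 7 and 0 on intron reads. Over all genes the fit with this block called 223, 540 and 186 of 12447 on exon reads. On intron reads the block called 373, 1634 and 73 of 11713. Under it Nfkb2 and Nfkbiz changed sign between the days on exon reads (0.0085 and 0.031).

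Of 1350 recomputed values for single genes, 57 changed sign, and 0 of these belonged to a called value. Log2 fold changes on exon reads between the days changed sign for Nfkb2 (0.028 with upper-quartile factors, 0.0011 with uniquely mapped reads, 0.22 with the intron share, 0.33 with the globin share), Nfkbiz (0.022 with upper-quartile factors, 0.21 with the intron share, 0.68 with the globin share, 0.12 on junction reads) and Bcl3 (0.083 with the intron share, 0.076 with the globin share). With the intron share, Nfkb1 turned to -0.025 at day 28 and Relb to -0.0023 at day 56 on exon reads, and on intron reads at day 28 Rela turned to -0.077, Relb to -0.078, Nfkb1 to -0.11 and Bcl3 to -0.078. On junction reads Relb was at -0.039 at day 56. With each library left out, exon values between the days ran from -0.53 to 0.053 for Bcl3, -0.15 to 0.13 for Nfkb2 and -0.32 to 0.39 for Nfkbiz, and at day 56 from -0.22 to 0.22 for Nfkb1 and -0.073 to 0.10 for Relb. Intron values ran from -0.24 to 0.58 for Bcl3 and -0.39 to 0.093 for Nfkbia between the days, and from -0.044 to 0.83 for Nfkbia at day 56. Intron minus exon values at day 28 ran from -0.13 to 0.31 for Nfkb1, -0.42 to 0.23 for Nfkb2, -0.21 to 0.14 for Nfkbia, -0.47 to 0.16 for Nfkbie, -0.14 to 0.24 for Nfkbiz and -0.65 to 0.23 for Tnfaip3. At day 56 they ran from -0.24 to 0.26 for Bcl3 and -0.37 to 0.26 for Nfkbie, and between the days from -0.10 to 0.27 for Nfkbie and -0.51 to 0.089 for Rel.

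Counts over all genes moved far more. On exon reads they were 16, 886 and 68 in the main design (day 28, day 56, between the days), 1661, 2343 and 1057 with DESeq2, and as low as 1, 138 and 0 with the intron share (first pair) and the globin share. On intron reads they were 186, 1833 and 108, with ranges of 0 to 472, 606 to 1836 and 35 to 523 over the alternatives that keep all libraries. With each library left out in turn they ran from 2 to 5732, 85 to 5453 and 3 to 1002 on exon reads and from 0 to 3103, 592 to 3467 and 9 to 776 on intron reads. Exon library sizes moved the median intron change of all genes by 0.58 at day 28 and 0.59 at day 56, and then 1201 of 1261 called genes were higher at day 56, against 956 of 1833.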
